A study of Homo sapiens with 9 samples.

Results

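The aldo-keto reductases are the AKR1 and AKR7 gene families. They were taken as the rows of the deposited table whose symbol starts with AKR1 or AKR7 followed by a letter. Of 27315 gene rows, 16 met that rule, 12 of them AKR1 rows and 4 AKR7 rows. The 7 genes AKR1C1, AKR1C2, AKR1C3, AKR1B1, AKR1B10, AKR1A1 and AKR7A2 had been picked out with the results of the hairpin comparisons known, so their differences between the groups are a description and carry no test. The rule also took in AKR1B15 and AKR1E2, which were expressed, and 7 rows with few or no reads.

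MDA-MB-468 is a human cell line that was established from metastatic breast cancer and is used as a model of triple-negative disease. Polyadenylated RNA was sequenced from 3 groups of 3 libraries. The sh1 and sh6 groups carried lentiviral short hairpin RNAs against BBOX1, and the control group carried a scrambled hairpin. BBOX1 encodes gamma-butyrobetaine hydroxylase, the enzyme of the last step of carnitine synthesis. All 3 groups were the same line, grown in RPMI medium with fetal serum, infected with virus packaged in 293T cells and kept under the antibiotic that matched the vector. The labels name neither a clone nor a time after infection, and the target sequence of sh6 is not among the sequences they name. No label places the 3 libraries of a group in different cultures, so p-values speak for the variation among libraries alone, and that variation may be technical.

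Recovered depth ran from 15729876 to 16220959 reads per library with sh1, from 16047303 to 18869673 with sh6 and from 16714944 to 19743888 in the controls. BBOX1 itself had a normalised count of 333 ± 11.5 with sh1, 601 ± 19.0 with sh6 and 2616 ± 226 in the controls (SD, n = 3 each), with no overlap between hairpin and control libraries. All 6 epithelial markers were expressed, and KRT8 averaged 42206 with sh1, 50275 with sh6 and 42986 in the controls. EGFR, abundant in this line, averaged 58770, 43436 and 55160 in the same order, and PGR had no read in any library. The other receptors of the triple-negative definition were above the filter. ESR1 averaged 242, 109 and 227 and ERBB2 averaged 753, 602 and 1091 in the same order. Of other cell types, only COL1A1 of 5 fibroblast markers and CD68 of 4 leucocyte markers were above the filter, and none of 3 endothelial markers. The summed fibroblast markers ranged from 285.1 to 350.6 with sh1, from 312.9 to 393.6 with sh6 and from 322.0 to 443.6 in the controls. The summed leucocyte markers ranged from 73.6 to 91.6 with sh1, from 131.1 to 137.5 with sh6 and from 197.4 to 224.6 in the controls. This is the same order of groups as that of the AKR1C genes below, and nearly all of it was CD68, with PTPRC averaging at most 3.53 in any group and CD3E with a read in a single control library. The summed endothelial markers ranged from 11.3 to 18.9, from 9.6 to 11.9 and from 24.6 to 32.8 in the same order. The part of these markers in the results was not tested. Since this is RNA of whole cultures, fewer cells that express a gene and less RNA per cell cannot be told apart.

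Aldo-keto reductases are mostly soluble enzymes with a barrel-shaped fold that use NADPH to reduce aldehydes and ketones to alcohols. Their substrates include glucose, retinal, steroid hormones, prostaglandins and the reactive aldehydes of lipid peroxidation, and several of them lower the potency of carbonyl-bearing drugs. In human cells the AKR1C genes and AKR1B10 are classical targets of NRF2, the transcription factor of the antioxidant response. The AKR1C enzymes are studied in breast tissue because they act on progesterone, oestrogen precursors and androgens.

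Several members are close copies, so the reads that tell them apart matter for every value below. The coding sequences of AKR1C1 and AKR1C2 were identical at 950 of 969 bases (98.0%), with an identical run of 186 bases, longer than the 100-base reads. The library was sequenced in read pairs, which can place some of the reads that a single mate cannot. AKR1C3 was 91.4% identical to AKR1C1, AKR1B15 was 93.5% identical to AKR1B10, and AKR7A3 was 92.1% identical to AKR7A2. Of all windows of 100 bases in the coding sequence, 180 of 870 in AKR1C1 (20.7%), 230 of 870 in AKR1C2 (26.4%) and 85 of 870 in AKR1C3 (9.8%) also occurred in another gene. The share was 3.5% for AKR1B10, 1.8% for AKR1B15 and 0.5% for AKR7A2, and no such window was found for AKR1A1, AKR1B1 or AKR1E2. The values of AKR1C1, AKR1C2 and AKR1C3 are therefore uncertain one by one, and their sum is given as well.

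The 60-base stretch within a coding exon where AKR1C1 and AKR1C2 differ most, with AKR1C3 aligned to it, shows what a read has to resolve. It covers coding bases 103 to 162 in exon 2 of 9, written 5′ to 3′ on the coding strand, with capitals at the 15 of 60 positions that vary among the copies. On GRCh38 it lies at chr10:4965932-4965991 on the plus strand in AKR1C1, at chr10:5001604-5001663 on the minus strand in AKR1C2 and at chr10:5096428-5096487 on the plus strand in AKR1C3.
AKR1C1: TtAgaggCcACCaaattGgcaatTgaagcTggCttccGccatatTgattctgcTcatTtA
AKR1C2: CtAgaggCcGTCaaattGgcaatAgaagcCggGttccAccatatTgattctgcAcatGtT
AKR1C3: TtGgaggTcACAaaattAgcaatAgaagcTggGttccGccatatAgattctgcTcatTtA

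The AKR1B pair is shown in the same way, with capitals at the 7 of 60 positions that differ. The windows are in exon 2 of 10, at chr7:134530685-134530744 in AKR1B10 and chr7:134568200-134568259 in AKR1B15, both on the plus strand of GRCh38.
AKR1B10: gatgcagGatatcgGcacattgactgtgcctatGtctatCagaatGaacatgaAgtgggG
AKR1B15: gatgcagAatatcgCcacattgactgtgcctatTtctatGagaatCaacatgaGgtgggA

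The AKR1C genes act on steroid hormones and prostaglandins. They lie together on chromosome 10 of GRCh38, AKR1C1 at chr10:4963253-4983283, AKR1C2 at chr10:4987400-5018031 on the opposite strand and AKR1C3 at chr10:5035354-5107686. All 3 expressed copies were lower with either BBOX1 hairpin than in the controls, and lower with sh1 than with sh6. AKR1C1, which inactivates progesterone, had normalised counts of 2723, 2501 and 2534 with sh1, 4394, 4320 and 4233 with sh6, and 8419, 8527 and 9461 in the controls. The 3 groups did not overlap, with sh1 lowest and the controls highest. AKR1C1 was 3.40 times lower with sh1 than in the controls and 2.04 times lower with sh6, log2 differences of -1.74 and -1.02 (SE 0.0543 each).

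AKR1C2 reduces dihydrotestosterone to a weaker androgen and was the most abundant member in the controls. Its normalised counts were 3725, 3528 and 3195 with sh1, 6927, 6513 and 6422 with sh6, and 10313, 10719 and 11185 in the controls. The groups again stood apart in the same order. AKR1C2 was 3.08 times lower with sh1 and 1.62 times lower with sh6 than in the controls, with log2 differences of -1.61 and -0.69 (SE 0.0561 each).

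AKR1C3, which makes testosterone from androstenedione and reduces prostaglandins to the F series, was the least abundant of the 3 copies in every library. It had 340, 343 and 269 normalised counts with sh1, 548, 566 and 522 with sh6, and 1262, 1376 and 1286 in the controls. No library of one group reached the range of another. The level was 4.12 times lower with sh1 and 2.40 times lower with sh6 than in the controls, log2 differences of -1.86 and -1.17 (SE 0.0734 each).

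The sum of the copies, which no split of shared reads among AKR1C1, AKR1C2 and AKR1C3 can move, kept this order. AKR1C1, AKR1C2 and AKR1C3 together had 6386 ± 395 normalised counts with sh1, 11482 ± 353 with sh6 and 20849 ± 989 in the controls (SD, n = 3 each), 3.27 times lower with sh1 and 1.82 times lower with sh6. The AKR1C2 to AKR1C1 ratio was 1.35 ± 0.0773 with sh1, 1.53 ± 0.0374 with sh6 and 1.22 ± 0.0375 in the controls. It was 1.37, 1.41 and 1.26 in the sh1 libraries, 1.58, 1.51 and 1.52 with sh6, and 1.22, 1.26 and 1.18 in the controls, so that sh1 and control touched at 1.26 while sh6 stood above both. The AKR1C3 to AKR1C1 ratio was 0.123 ± 0.0157 with sh1, 0.126 ± 0.00408 with sh6 and 0.149 ± 0.0127 in the controls. Between the hairpins, AKR1C2 was 1.90-fold, AKR1C3 1.72-fold and AKR1C1 1.67-fold higher with sh6 than with sh1.

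**Figure D1:**
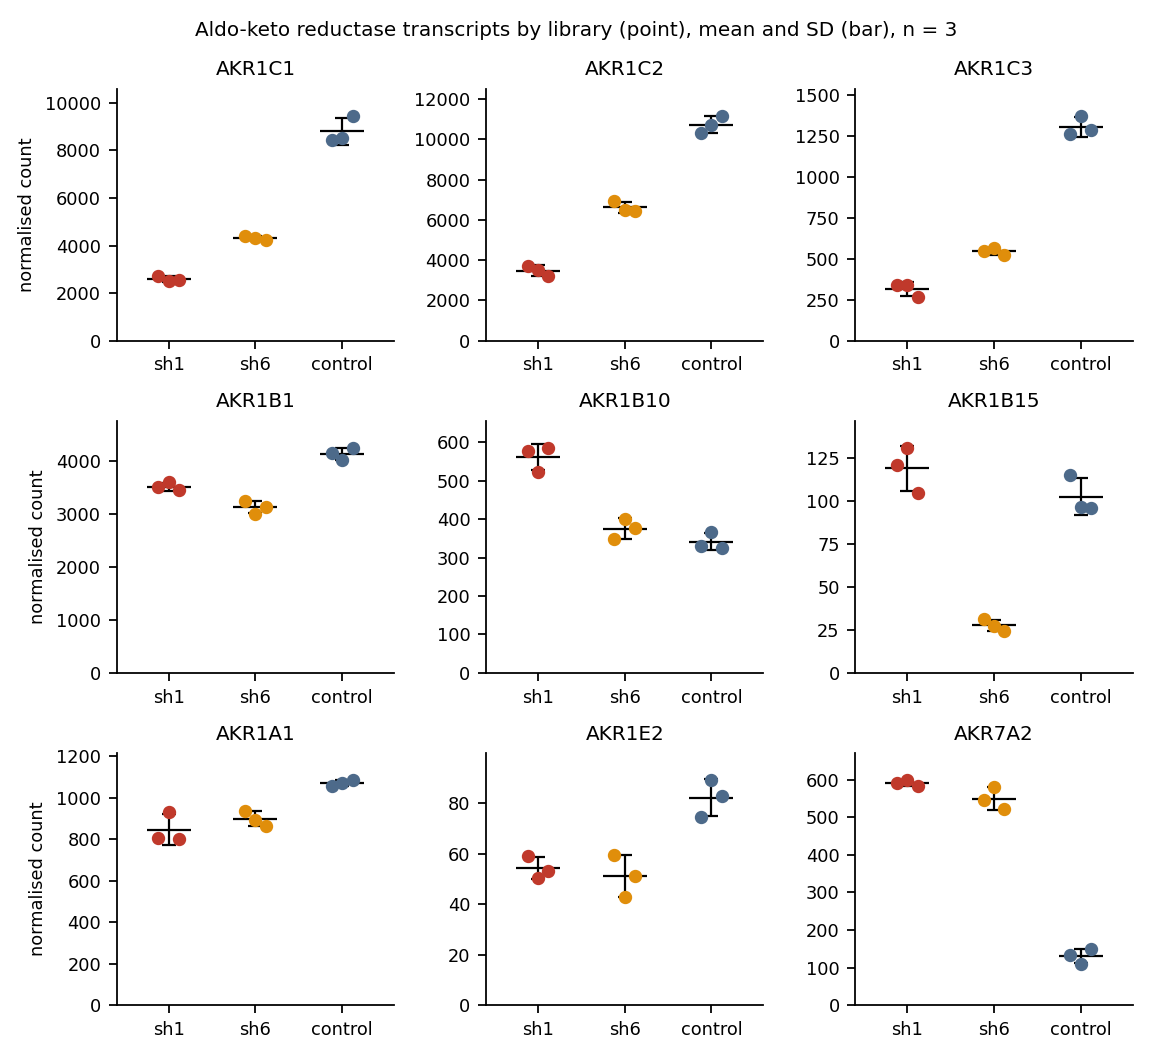
Normalised count (vertical axis, from 0, with its own scale in each panel) of the 9 expressed aldo-keto reductases in the sh1, sh6 and control libraries. Points are libraries, the long bar is the mean and the whiskers are 1 SD (n = 3). The 3 AKR1C panels step up from sh1 through sh6 to control, AKR7A2 is high with both hairpins (521 to 599) against 111 to 150 in the controls, and AKR1B15 is low in the sh6 libraries alone (24.4 to 31.2).

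The promoters of AKR1C1 and AKR1C2 are printed because these copies had the same order of groups. The 250 bases before each RefSeq start (GRCh38.p14) lie at chr10:4963165-4963414 on the plus strand for AKR1C1 and at chr10:5003858-5004107 on the minus strand for AKR1C2. Cut at the start, the sequences align over 246 bases with 1 difference, offset by 4 bases. That difference is the last base printed for AKR1C1 and comes from the cut. When the alignment runs on past the start, a gap of 4 bases falls there and the base is not a substitution. In that longer alignment 288 of 292 aligned bases were identical, and the bases that differed lay after the start. Capitals mark the differing base and the unaligned ends, and both are written 5′ to 3′ toward the gene.
AKR1C1: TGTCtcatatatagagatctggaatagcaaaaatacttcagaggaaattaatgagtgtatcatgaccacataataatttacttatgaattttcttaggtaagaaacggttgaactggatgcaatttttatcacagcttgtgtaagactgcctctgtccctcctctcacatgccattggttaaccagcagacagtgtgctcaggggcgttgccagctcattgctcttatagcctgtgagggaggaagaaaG
AKR1C2: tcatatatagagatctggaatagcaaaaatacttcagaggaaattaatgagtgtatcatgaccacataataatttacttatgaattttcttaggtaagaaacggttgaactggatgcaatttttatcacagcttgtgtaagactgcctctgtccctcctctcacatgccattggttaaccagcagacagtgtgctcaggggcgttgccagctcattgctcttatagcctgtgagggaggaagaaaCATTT

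AKR7A2 was the member that differed most in the other direction. It encodes an aldehyde reductase that reduces succinic semialdehyde and the dialdehyde of aflatoxin, and lies at chr1:19303965-19312146 on the minus strand of GRCh38. Its normalised counts were 590, 599 and 584 with sh1, 547, 581 and 521 with sh6, and 133, 111 and 150 in the controls. All 6 hairpin libraries were more than 3 times the highest control, and the sh6 libraries lay just below the sh1 libraries. AKR7A2 was 4.50-fold higher with sh1 and 4.18-fold higher with sh6 than in the controls, with log2 differences of 1.78 and 1.69 (SE 0.0778 each). Its share of all counts in the family was 4.89% ± 0.154 with sh1, 3.33% ± 0.192 with sh6 and 0.491% ± 0.0618 in the controls (SD, n = 3 each).

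The other AKR7 rows were near the floor. AKR7A3, a liver aflatoxin reductase, had 0 to 5.29 normalised counts per library, AKR7L had 3.19 to 13.8, and AKR7A2P1, a processed pseudogene, was at the floor in all 9 libraries. Over the 9 libraries AKR7A3 held 26 reads and AKR7L 58, where AKR7A2 held 3802.

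The AKR7A2 promoter is printed for its copies of the NRF2 recognition core. The motif searched was TGACNNNGC on both strands, and capitals mark its 3 matches, which begin 167, 156 and 95 bases before the start and do not overlap one another. The window is chr1:19312147-19312396 on the minus strand of GRCh38.p14, with 78.8% G and C.
AKR7A2: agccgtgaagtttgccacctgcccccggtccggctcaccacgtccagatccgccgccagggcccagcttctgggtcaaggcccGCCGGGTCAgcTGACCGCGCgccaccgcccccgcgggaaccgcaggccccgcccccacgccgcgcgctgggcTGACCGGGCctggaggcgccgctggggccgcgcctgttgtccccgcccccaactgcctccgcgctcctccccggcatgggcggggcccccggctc

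At least 1 match to TGACNNNGC was present in 4687 of 35116 RefSeq promoter windows of 300 bases (13.3%), without regard to base composition. The promoter table matched 7 of the 9 expressed members, and in those windows AKR7A2 alone held the motif. AKR1B10 and AKR1B15 are the members it did not match. All 3 of the AKR7A2 matches also lie in the window of PQLC2 (also named SLC66A1), which starts 180 bases away on the other strand. They are therefore not particular to AKR7A2. The same windows were searched for 3 other words. The E-box word CACGTG occurred in 7.3% of all promoters and was found for AKR1A1, beginning 9 bases before its start. The hypoxia and xenobiotic element core GCGTG occurred in 36.5% of all promoters, and of the expressed members in the windows of AKR7A2, AKR1B1 and AKR1E2. The TATA-box word TATAAA occurred in 11.5% of all promoters, and of the expressed members in 1 of 2 windows of AKR1C3. A match is a description of letters and not a binding site, and the AKR1C windows lack these 9 letters only in the bases searched.

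AKR1B1 is aldose reductase, which turns glucose into sorbitol in the first step of the polyol pathway. It lies at chr7:134442350-134459284 on the minus strand of GRCh38. Normalised counts were 3502, 3594 and 3443 with sh1, 3238, 3001 and 3137 with sh6, and 4142, 4018 and 4243 in the controls. Both hairpin groups lay below the controls without overlap, and here sh6 was the lower. AKR1B1 was 1.18 times lower with sh1 and 1.32 times lower with sh6, log2 differences of -0.23 and -0.40 (SE 0.0515 each).

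AKR1B10 reduces retinal and the aldehydes of lipid peroxidation, and lies at chr7:134527592-134541408. It had 577, 523 and 585 normalised counts with sh1, 347, 401 and 377 with sh6, and 330, 366 and 326 in the controls. It was high with sh1 only, and the sh6 and control ranges overlapped. AKR1B10 was 1.65-fold higher with sh1 than in the controls (log2 0.63, SE 0.0737) and 1.10-fold higher with sh6 (log2 0.12).

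AKR1B15, the neighbouring copy of AKR1B10 at chr7:134549136-134579875, differed with the other hairpin. Its normalised counts were 121, 131 and 105 with sh1, 31.2, 27.3 and 24.4 with sh6, and 115, 96.6 and 96.0 in the controls. Every sh6 library was below every other, and the sh1 range overlapped that of the controls. AKR1B15 was 3.71 times lower with sh6 than in the controls and 4.30 times lower with sh6 than with sh1. The log2 difference on the deposited scale, -1.02 (SE 0.0946), understates this, and it was -1.86 as the log2 of the normalised count plus 1. The AKR1B10 to AKR1B15 ratio was 4.77 ± 0.778 with sh1, 13.7 ± 2.31 with sh6 and 3.35 ± 0.458 in the controls, and the sum of both copies was 680 ± 23.8, 402 ± 25.1 and 443 ± 20.5 in the same order.

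AKR1A1, the general aldehyde reductase at chr1:45550543-45570049, and AKR1E2, an anhydrofructose reductase at chr10:4786629-4848062, were modestly lower with both hairpins. AKR1A1 had 804, 932 and 802 normalised counts with sh1, 936, 893 and 864 with sh6, and 1055, 1071 and 1085 in the controls. It was 1.26 times lower with sh1 and 1.19 times lower with sh6 (log2 -0.32 and -0.24, SE 0.0635 each). For AKR1E2 the counts were 59.2, 50.6 and 53.1 with sh1, 59.6, 43.0 and 51.3 with sh6, and 74.6, 89.2 and 82.7 in the controls, 1.51 and 1.60 times lower. Neither gene's hairpin groups overlapped the controls, and the hairpin groups overlapped each other for both genes.

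**Figure D2:**
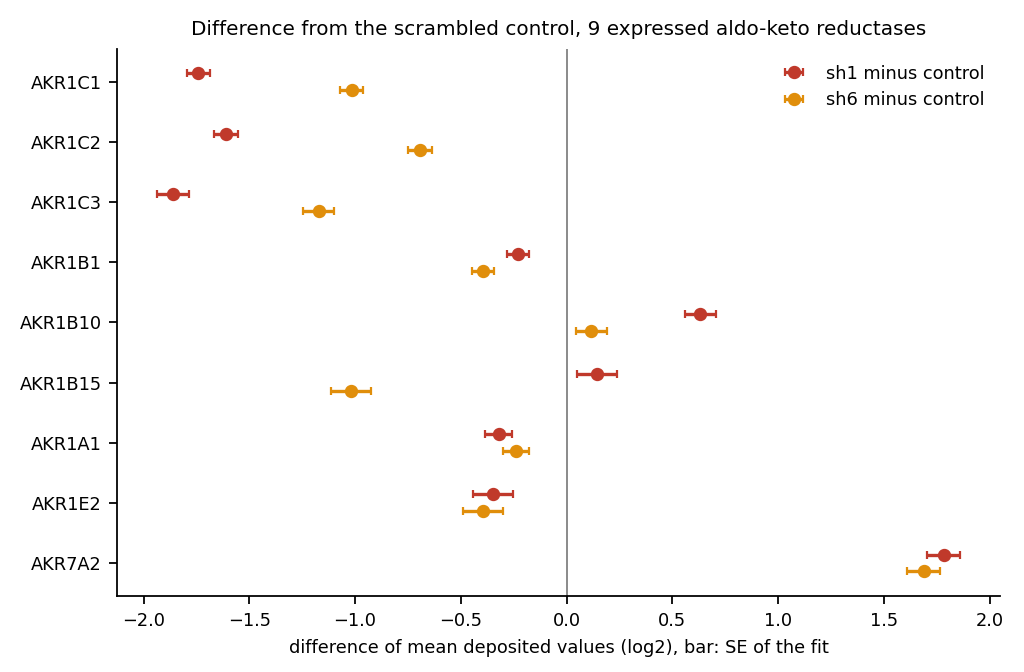
Difference between the mean deposited values of each hairpin group and of the control group (horizontal axis, log2) for the 9 expressed members, with bars of 1 SE. AKR1C1, AKR1C2 and AKR1C3 lie on the left with sh1 the farther from 0, AKR7A2 lies alone at the right (1.78 and 1.69), and AKR1B10 and AKR1B15 each stand away from 0 with a single hairpin.

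Across all genes, 29.0% passed an adjusted p under 0.05 as higher with sh1 and 30.0% as lower in limma, and 34.2% and 33.6% with sh6. In the same fit 2 of the 9 expressed members were higher and 6 lower with sh1, and 1 was higher and 7 lower with sh6. With both hairpins 1 member was higher and 6 were lower, where all genes gave 18.9% and 19.4%. Between the hairpins, 3 members were higher and 3 lower with sh6 than with sh1, where all genes gave 30.8% and 28.9%. The members were selected on these contrasts, and nothing is read from their counts. The median absolute log2 difference over all 13165 genes tested was 0.22 with sh1 and 0.28 with sh6, and 842 genes passed in opposite directions with the hairpins. The hairpin comparisons share their 3 control libraries.

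The remaining rows had little or no signal. AKR1D1, the steroid reductase of bile acid synthesis, had 0 to 3.19 normalised counts per library, and the liver form AKR1C4 had 1 read in 1 control library. A count of 0 allows up to 3 reads, about 3 normalised counts in these libraries, for counting error only. AKR1C6P and AKR1C8P were at the floor in all 9 libraries. The filter asked for a mean of at least 1 over the floor on the log2 scale, and of the members nearest to it AKR1E2 (6.87) and AKR1B15 (7.04) were inside and AKR7L (5.64) and AKR7A3 (5.41) outside.

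Levels of different members can be compared only per length. The length used was that of the coding sequence, while the counts are of whole transcripts. Untranslated parts were not allowed for, so the order of members with close levels is uncertain. Per kilobase of coding sequence, the controls had 11100 ± 450 normalised counts of AKR1C2, 9080 ± 591 of AKR1C1, 4360 ± 119 of AKR1B1, 1350 ± 62.1 of AKR1C3 and 1100 ± 15.8 of AKR1A1 (SD, n = 3). The controls had 359 ± 23.2 per kilobase of AKR1B10, 122 ± 18.1 of AKR7A2, 99.4 ± 10.4 of AKR1B15 and 85.6 ± 7.65 of AKR1E2. The ranges of AKR7A2 and AKR1B15 overlapped there, and the other neighbours in the order were apart, AKR1B15 (93.0 to 111) and AKR1E2 (77.7 to 92.9) by the least.

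The order of levels per kilobase differed with the hairpins. With sh1, AKR1B1 (3710 ± 80.2) and AKR1C2 (3590 ± 277) overlapped at the top, followed by AKR1C1 at 2670 ± 123. AKR1B10 (592 ± 35.7) and AKR7A2 (549 ± 7.34) overlapped, and both were above AKR1C3 (327 ± 43.4). With sh6, AKR1C2 (6830 ± 278) was highest, then AKR1C1 (4450 ± 83.3) and AKR1B1 (3300 ± 126), while AKR1C3 (563 ± 22.7) and AKR7A2 (511 ± 27.9) overlapped and AKR1B15 (26.8 ± 3.29) was last.

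All 16 rows summed to 12080 ± 451 normalised counts with sh1, 16519 ± 457 with sh6 and 26721 ± 1080 in the controls (SD, n = 3 each), 2.21 and 1.62 times lower. AKR1B1 made up 29.1% ± 0.855 of that sum with sh1, 18.9% ± 0.540 with sh6 and 15.5% ± 0.470 in the controls. AKR1C1 made up 21.4% ± 0.804 with sh1, 26.1% ± 0.308 with sh6 and 32.9% ± 0.837 in the controls.

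**Figure D3:**
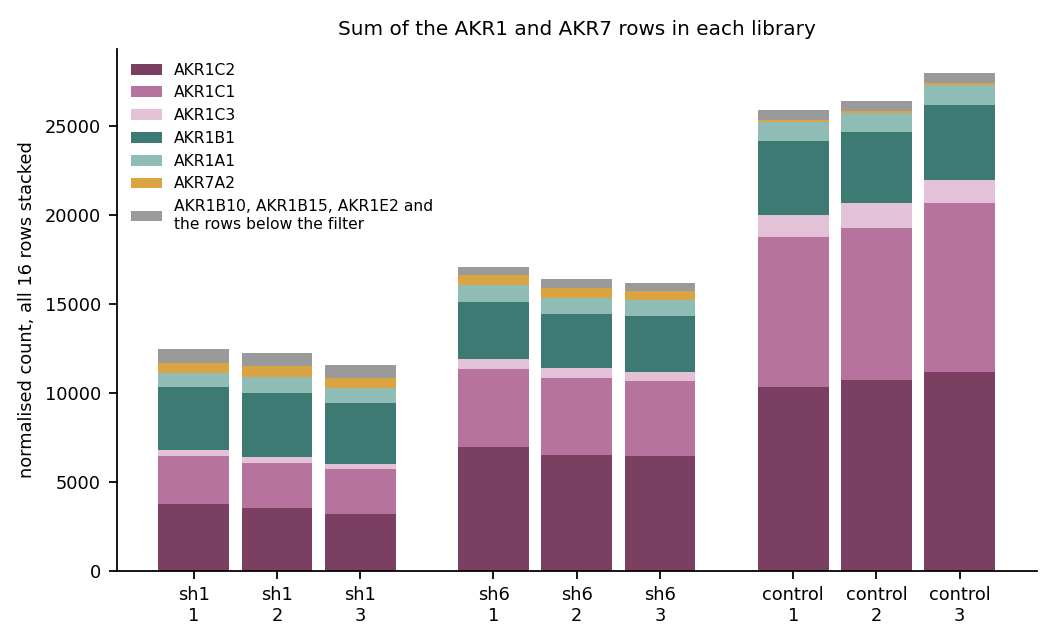
Normalised counts of the 16 AKR1 and AKR7 rows stacked for each library (vertical axis, from 0), with sh1, sh6 and control libraries from left to right. The bars reach 11578 to 12452 with sh1, 16160 to 17034 with sh6 and 25849 to 27928 in the controls, and the AKR1C segments account for most of the difference in height.

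The genes whose pattern over the 9 libraries was most like each member were found by the root mean square distance between values centred on their mean, on the log2 scale. For AKR7A2 these were CPA4 (0.112), GAS6 (0.129) and BMP2 (0.131). For AKR1C1 they were LYPD3 (0.092), AKR1C3 (0.117) and PLEKHS1 (0.127), for AKR1C2 they were the complement gene C3 (0.088), PLEKHS1 (0.122) and TXNDC5 (0.127), and for AKR1C3 they were MGP (0.103), AKR1C1 (0.117) and INSIG1 (0.133). AKR1B10 was closest to IVNS1ABP (0.034), MMGT1 (0.053) and ZFP30 (0.053), and AKR1B15 to LETM2 (0.088), ENDOD1 (0.089) and RNF39 (0.091). AKR1B1 was closest to SEC24C (0.032), SLC35A4 (0.039) and DAP (0.043), AKR1A1 to NENF (0.045), ITPRIP (0.048) and MRPL44 (0.049), and AKR1E2 to PPM1M (0.054), ELOVL1 (0.057) and HDHD3 (0.059). These distances describe the pattern alone.

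Genes that flank the members on the chromosome were chosen after the files were seen, as the 3 nearest protein-coding genes on each side. Around the AKR7 genes, 4 of 6 rose with both hairpins and none fell with both, where 18.9% of all genes rose and 19.4% fell with both. UBR4, which encodes a ubiquitin ligase, had 3326 ± 28.9 normalised counts with sh1, 5248 ± 687 with sh6 and 2633 ± 251 in the controls (limma adjusted p = 9.7e-05 and 9.4e-14). EMC1 and MRTO4 rose with log2 differences of 0.33 and 0.46 with sh1 and 0.39 and 0.49 with sh6. PQLC2, which encodes a lysosomal amino acid transporter and starts 180 bases from AKR7A2 on the other strand, rose 1.18-fold with sh1 (limma adjusted p = 0.039) and 1.62-fold with sh6 (adjusted p = 2.8e-07). Its rise with sh1 did not pass when any sh1 library (adjusted p = 0.1, 0.068 and 0.073 without replicates 1, 2 and 3), control replicate 1 (0.17) or control replicate 2 (0.086) was left out, which leaves 3 of 6. CAPZB had log2 differences of -0.40 with sh1 and -0.05 with sh6, and MINOS1 had 0.02 with each.

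Around the other members the flanking genes moved both ways. The nearest on 1 side of the AKR1C genes and AKR1E2 are far off. PITRM1 ends at chr10:3172841 and KLF6 at chr10:3785281, while AKR1E2 starts at chr10:4786629. Of 4 tested around these members, PFKP and PITRM1 rose with both hairpins, by 0.27 and 0.47 on the log2 scale with sh1 and by 0.41 and 0.17 with sh6. NET1 fell by 0.51 with sh1 and had -0.11 with sh6. Without sh6 replicate 3, PITRM1 no longer passed with sh6 (limma adjusted p = 0.052), which leaves only PFKP higher with both, and NET1 became lower with both. KLF6, a zinc-finger transcription factor, had 2548 ± 123 normalised counts with sh1, 1484 ± 57.1 with sh6 and 1827 ± 54.4 in the controls, and so rose with sh1 (adjusted p = 1.8e-08) and fell with sh6 (adjusted p = 3.6e-05). Beside the AKR1B genes 2 of 4 rose (EXOC4 and SLC35B4) and 2 fell (BPGM and CALD1) with both. Beside AKR1A1, GPBP1L1 fell with both (log2 -0.32 and -1.27), CCDC163 rose with both and NASP fell with sh1 and rose with sh6. CCDC163 did not pass without control replicate 1 (adjusted p = 0.054 and 0.059), nor NASP with sh6 without sh6 replicates 2 or 3 or control replicates 1 or 2, left out singly (adjusted p = 0.12, 0.054, 0.1 and 0.14). Some of these neighbours overlap (EMC1 and MRTO4, CAPZB and MINOS1, CCDC163, MMACHC and PRDX1), and the sources used here do not give the strand setting of the counting.

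The potassium channel beta subunits share the aldo-keto reductase fold without belonging to the AKR1 or AKR7 families. Of the 3, only KCNAB2 was above the filter. It had 75.8 ± 10.3 normalised counts with sh1, 117 ± 20.5 with sh6 and 34.0 ± 4.77 in the controls (SD, n = 3 each). KCNAB2 rose with both hairpins, with log2 differences of 0.61 (limma adjusted p = 5e-06) and 1.01 (adjusted p = 3.1e-10).

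The pathways around these enzymes were described from lists of genes that exclude the members, and a gene can stand in more than 1 list. Over all genes tested, 18.9% rose and 19.4% fell with both hairpins, and the median log2 difference was 0.001 with sh1 and 0.006 with sh6. The count and median of each list are read beside those. In the polyol and methylglyoxal list 3 of 9 tested genes rose with both hairpins and 1 fell, with list medians of 0.03 and 0.16. SORD, sorbitol dehydrogenase, which follows aldose reductase in the polyol pathway, had 571 ± 29.4 normalised counts with sh1, 646 ± 25.1 with sh6 and 475 ± 25.0 in the controls (limma adjusted p = 0.0032 and 5.1e-06). KHK, which phosphorylates fructose, rose 2.06-fold and 2.24-fold, and FN3KRP, a kinase acting on sugar adducts of proteins, rose 1.42-fold and 1.45-fold. GLO1, the glyoxalase that clears methylglyoxal, fell to 3698 ± 58.7 with sh1 and 3809 ± 239 with sh6, against 5998 ± 329 in the controls (adjusted p = 3.7e-12 and 9.6e-12).

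Among carbonyl reductases of the short-chain and medium-chain families, 3 of 21 tested rose and 4 fell with both hairpins, with medians of -0.03 and -0.04. DHRS7 fell with log2 differences of -0.76 and -1.13, and DHRS3, a retinal reductase, with -0.77 and -0.39. PTGR2, a prostaglandin reductase, had 509 ± 18.3 normalised counts with sh1, 324 ± 37.2 with sh6 and 797 ± 113 in the controls. DHRS1, DHRS4L2 and DHRS7B were the 3 that rose, each at most 1.54-fold. With sh1, DHRS4L2 no longer passed when sh1 replicates 1 or 3, sh6 replicate 3 or control replicates 1 or 3 were left out singly (limma adjusted p = 0.26, 0.051, 0.052, 0.12 and 0.09), and DHRS7B when sh1 replicate 2 or control replicates 1 or 2 were (adjusted p = 0.097, 0.12 and 0.077). Without control replicate 1 only 1 gene of the list was higher with both. CBR1, the main cytosolic carbonyl reductase, had 1549 ± 54.6 normalised counts with sh1, 2328 ± 30.6 with sh6 and 1552 ± 36.1 in the controls, a rise with sh6 (adjusted p = 1.1e-10).

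Many aldehyde dehydrogenases oxidise aldehydes that aldo-keto reductases reduce, but not every gene of the list does so. Of 17 tested, 4 rose and 7 fell with both hairpins and 2 moved in opposite directions, with medians of -0.29 and -0.20. ALDH3B2 fell to 1455 ± 32.4 with sh1 and 1094 ± 95.9 with sh6, against 4664 ± 173 in the controls (limma adjusted p = 8.4e-21 and 2.5e-23). ALDH1A2 and ALDH3B1 also fell with both. ALDH16A1, ALDH18A1, ALDH1B1 and ALDH1A3 rose with both. ALDH3A1, which clears lipid aldehydes, was low in the controls at 22.9 ± 5.31 normalised counts, and had 9.13 ± 3.77 with sh1 and 176 ± 29.5 with sh6 (adjusted p = 0.0012 and 1.6e-14). ALDH3A2, which oxidises fatty aldehydes, had 1304 ± 22.0 with sh1, 1829 ± 62.3 with sh6 and 1499 ± 85.2 in the controls.

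Of 17 genes tested on the steroid hormone list, all outside the family, 8 fell and 1 rose with both hairpins, with medians of -0.12 and -0.34. Not all genes of the list act mainly on steroid hormones. The 1 that rose was SRD5A1, the reductase that makes dihydrotestosterone, at 1369 ± 48.4 normalised counts with sh1, 1318 ± 50.4 with sh6 and 505 ± 21.2 in the controls (limma adjusted p = 3.1e-18 and 5.4e-18). STS, the steroid sulfatase, fell to 261 ± 13.5 with sh1 and 162 ± 14.4 with sh6, against 636 ± 39.2. HSD17B2, which oxidises oestradiol and testosterone to less active forms, fell to 37.1 ± 13.7 with sh1 and 15.6 ± 1.45 with sh6, against 122 ± 4.70 in the controls. SRD5A3 fell with log2 differences of -1.06 and -1.21; its known role is in polyprenol reduction.

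Of 12 prostaglandin genes tested, 2 rose and 4 fell with both hairpins, with medians of -0.08 and -0.10. PTGES, a prostaglandin E synthase, fell to 521 ± 28.4 with sh1 and 791 ± 44.0 with sh6, against 1176 ± 86.6 in the controls (limma adjusted p = 6.6e-15 and 2.6e-08). HPGD, which inactivates prostaglandins, had 15.6 ± 0.953 with sh1, 9.96 ± 3.19 with sh6 and 42.4 ± 5.18 in the controls, a fall with both hairpins. SLCO2A1, a prostaglandin transporter, rose 2.55-fold and 5.58-fold at low counts, and PTGES2 rose 1.33-fold and 1.77-fold. PTGS2, the inducible cyclooxygenase, was below the filter, with a mean of at most 2.65 normalised counts in any group. PTGS1, the other cyclooxygenase, fell with both hairpins at low counts. It had 7.75 ± 3.29 with sh1, 30.7 ± 6.48 with sh6 and 57.8 ± 7.37 in the controls (limma adjusted p = 2.5e-10 and 0.00047).

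Genes that convert retinol and retinal, substrates shared with AKR1B10, were lower with both hairpins in 10 of 16 tested and higher in 1, beside 19.4% and 18.9% of all genes, with medians of -0.43 and -0.41. RDH10, which oxidises retinol to retinal, fell to 1055 ± 61.1 with sh1 and 1400 ± 26.9 with sh6, against 3292 ± 114 in the controls (limma adjusted p = 7.3e-21 and 6.4e-18). BCO1, which cleaves carotene to retinal, fell to 71.9 ± 0.570 with sh1 and 92.4 ± 3.27 with sh6, against 207 ± 19.9. ALDH1A3, which makes retinoic acid from retinal, was the 1 that rose, to 1730 ± 121 with sh1 and 4260 ± 156 with sh6, against 1435 ± 121 in the controls. CRABP1, a retinoic acid carrier, had 128 ± 9.49 with sh1, 238 ± 22.2 with sh6 and 159 ± 3.73 in the controls, and its fall with sh1 (adjusted p = 0.021) did not pass without sh1 replicate 1 or control replicate 1 (adjusted p = 0.1 and 0.061).

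NFE2L2, which encodes NRF2, fell to 3015 ± 122 normalised counts with sh1 and 3102 ± 37.5 with sh6, against 4223 ± 259 in the controls (limma adjusted p = 6.8e-09 and 2.7e-08), and KEAP1, its repressor, rose 1.17-fold and 1.20-fold. Of 35 genes tested on the list of NRF2 regulators and NRF2-induced genes, 8 rose and 9 fell with both hairpins and 6 moved in opposite directions. The list medians were -0.17 with sh1 and 0.25 with sh6. Between the hairpins 25 of the 35 were higher and 3 lower with sh6 than with sh1, where 30.8% of all genes were higher and 28.9% lower. The 3 lower genes were HMOX1 (log2 -0.602), SLC7A11 (-0.708) and MAFF (-1.036). Regulators such as NFE2L2 and KEAP1 stand on the list beside induced genes, so its counts are not of induced genes alone. The median of the list in that contrast was 0.27, and that of all genes 0.011. The AKR1C genes likewise were higher with sh6 than with sh1, and they were below the controls with both hairpins. AKR1B10, named above with them as an NRF2 target, went the other way, with a log2 difference of -0.515 for sh6 minus sh1. It was above the controls with sh1 (log2 0.63) and overlapped them with sh6.

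The ferritin chains FTH1 and FTL were lower than the controls with sh1 and higher with sh6. FTL had 2587 ± 208 normalised counts with sh1, 6099 ± 513 with sh6 and 3927 ± 17.0 in the controls (limma adjusted p = 6.5e-10 and 1.5e-10). FTH1 had 73971 ± 2640 with sh1, 133012 ± 6090 with sh6 and 97350 ± 5760 in the controls. NQO1, a standard NRF2-induced quinone reductase, had 2535 ± 60.3 with sh1, 3335 ± 101 with sh6 and 2354 ± 108 in the controls. It rose with sh6 (adjusted p = 1.7e-09) and not with sh1 (adjusted p = 0.09, or 0.025 without control replicate 3). The export pumps ABCC1 and ABCC3 and the iron-binding PIR rose with both hairpins. CES1, a carboxylesterase, fell to 913 ± 18.8 with sh1 and 2271 ± 183 with sh6, against 3631 ± 128, and BLVRB and PGD fell with both. Ferritin genes and CES1 have close copies or pseudogenes, and the way the authors' counting split their reads is not stated.

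NADPH is the cofactor of the family. Of 20 genes tested that supply it or feed the pentose phosphate pathway, 4 rose and 6 fell with both hairpins, with medians of -0.07 and -0.12. IDH1, the cytosolic isocitrate dehydrogenase, fell to 1529 ± 39.5 normalised counts with sh1 and 1967 ± 90.9 with sh6, against 4309 ± 321 in the controls (limma adjusted p = 1.1e-19 and 7.2e-17). PGD fell with log2 differences of -0.49 and -0.45, and RPE, an epimerase that makes no NADPH itself, with -0.24 and -0.46. ME3, MTHFD1 and TKT rose with both, by 1.51-fold, 1.40-fold and 1.18-fold with sh1.

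**Figure D4:**
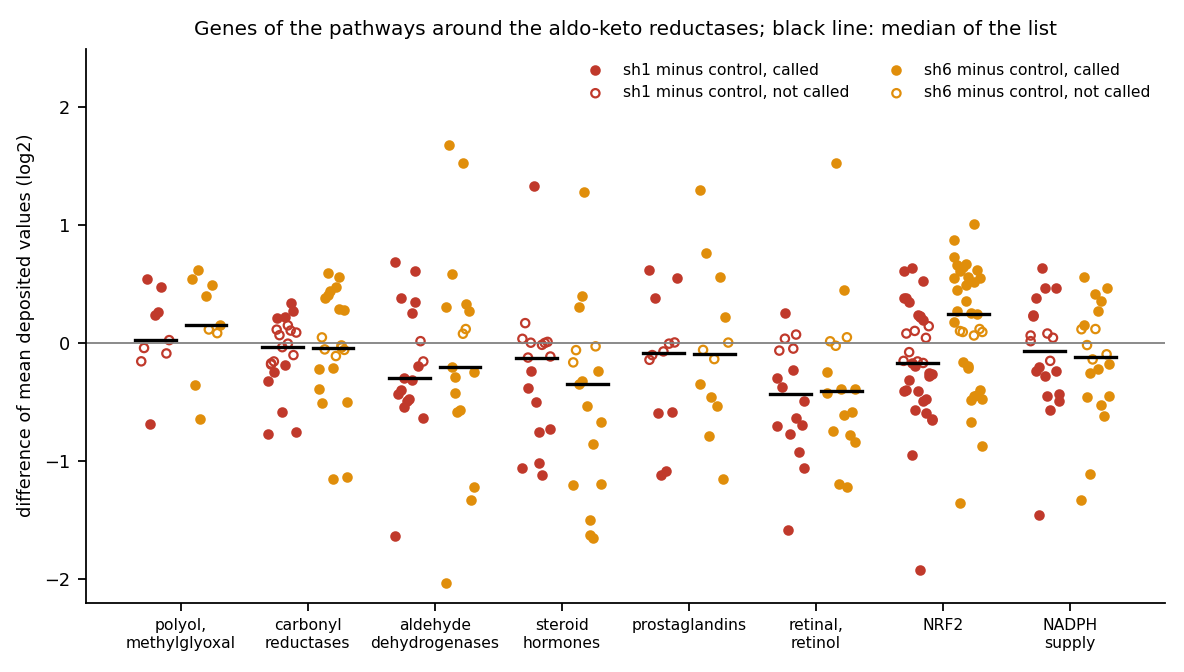
Difference between each hairpin group and the control group (vertical axis, log2 of the deposited values) for every tested gene of 8 lists, sh1 left and sh6 right within each list. Filled points passed an adjusted p under 0.05 in limma, open points did not, and black lines are list medians. The retinal and retinol medians lie below 0 with both hairpins (-0.43 and -0.41), while the NRF2 medians lie on opposite sides (-0.17 and 0.25).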

How the data were processed

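Per the labels, 9 polyA libraries were read as 100-base mate pairs, and the titles give the groups. Trimming, alignment and quantification tools named in the submitters' processing notes are cutadapt, STAR, Salmon and DESeq2, with the build hg19 and without order or settings. The deposited table holds variance-stabilised log2 values that the authors made, with a floor of 5.02. It also holds the authors' deposited log2 fold changes and adjusted p-values of a comparison they do not state, not used here. Its name calls the values batch-corrected, yet they keep the steps of whole reads. The transformation behind the deposited log2 values was solved for the normalised count, and low values gave the size of 1 read in each sample. Between 0.5 and 20.5 reads, 76.6% to 80.4% of values per sample were whole within 0.05. Recovered depths stand in the report, and depth limits the rows below the filter most.

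Genes with a mean at least 1 above the floor (normalised count 16.2) were tested, 13165 in all. limma 3.58.1 in R 4.3.3 (lmFit, eBayes with a mean trend, two-sided) fitted 1 model of 3 groups, with Benjamini-Hochberg adjustment over all genes and calls at an adjusted p under 0.05. Values given as mean ± SD and folds are of normalised counts, and log2 differences are of deposited values, which understate changes of low genes. Tested on simulated data for sh1 against control (13156 genes), the fit recovered 100% of 200 genes changed by a log2 of 1, fitted at a median of 0.90, with 2.4% false calls. The simulation gave all genes the same relative spread between replicates, had no batch and changed far fewer genes than were called here. Its rates therefore do not carry over to these data.

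The members and lists were chosen with earlier results of these data known. The rule for named genes takes BBOX1, all members, the KCNAB genes, 9 set genes, up to 3 per list that rose and 3 that fell with both hairpins by the smaller of the 2 log2 differences, up to 2 called in opposite directions, and the 3 genes most like each expressed member (pseudogenes and unnamed clones left out). Flanking genes and HMOX1, SLC7A11, MAFF and PTGS1 were added after the files were seen. Coding sequences and positions came from GENCODE 29 (GRCh38) and promoters from RefSeq (GRCh38.p14), not the authors' build, so no coordinate of theirs is used. Symbols turned into dates (27) are not named, and some genes that the rule names are not reported here. Alternatives were a log2 of the count plus 1, median centring, other filters, no trend, voom on recovered reads, a replicate block and leaving out each sample. Python 3.11.15, numpy 2.4.6, pandas 2.3.3, Biopython 1.88 and matplotlib 3.10.9 did the rest.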

Additional observations from a re-analysis of the deposited data

Results flagged for a closer look

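The genes below passed the test in opposite directions with the hairpins. Their difference between the hairpins, tested in limma as sh6 minus sh1, spans both of those called gaps. Its passing therefore followed from how the genes were picked, and its adjusted p-values are no further support. ALDH3A1 differed by 2.11 on the log2 scale (adjusted p = 1.3e-16), with 176 ± 29.5 normalised counts with sh6 and 9.13 ± 3.77 with sh1 (SD, n = 3 each). FTL differed by 1.22 (adjusted p = 4.1e-17) and FTH1 by 0.85 (adjusted p = 3.7e-13). CRABP1 differed by 0.68 (adjusted p = 3.9e-08), ALDH3A2 by 0.47 (adjusted p = 2.6e-08) and NASP by 0.41 (adjusted p = 2.2e-06). KLF6 differed the other way, by -0.75 (adjusted p = 6.3e-13). Such opposite calls were made for 842 of the 13165 genes tested.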

How the results depend on the processing

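Counts of genes called moved little. With sh1 against the control the count was 7760 and lay between 7030 (filter of at least 2 above the floor) and 8121 (no filter) under the alternatives, and between 7000 and 8014 when 1 library was left out. With sh6 against the control it was 8922, or 8337 to 8889 with 1 library left out, with both hairpins in the same direction 5037, or 4509 to 5262, and with sh6 against sh1 7861, or 7108 to 8134. No label says that libraries of the same replicate number share more than the number. Over 9 such pairs the correlation of deviations ran from -0.128 to 0.176, and 5 of 9 samples correlated best with their own number. These values do not decide whether such libraries shared a batch. With the replicate number as a block the counts were 7950, 9049, 5179 and 8002 in that order. No expressed member's difference from the control changed sign under an alternative. Member differences were larger as the log2 of the normalised count plus 1, for AKR7A2 2.17 with sh1 and 2.07 with sh6, for AKR1E2 -0.59 and -0.68. Median centring moved the median of all genes to at most 0.031. CBR1 with sh1, not called, had the opposite sign after median centring (0.015), without sh1 replicate 3 (0.023) and without control replicate 3 (0.015), with a lowest value of -0.025 when 1 library was left out. With a filter of at least 2 above the floor KCNAB2 was not tested, and 1 prostaglandin gene was higher and 2 lower with both, by construction of fewer genes tested. NQO1 passed with sh1 after median centring (adjusted p = 0.045). DHRS4L2 with sh1 did not pass without a filter (0.074) or in voom (0.06), nor NASP with sh6 without the mean trend (0.066).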
